A study of Homo sapiens with 4 samples.

Results

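The genes described here are 42 genes of the Wnt and beta-catenin pathway, chosen by gene symbol from the 32673 genes of an RNA-sequencing table, and they lie on 16 chromosomes. They were measured in TF1-BA cells, which respond to imatinib, and in TF1-BAR cells, which resist it. Both are forms of TF1, a human erythroleukaemia line that grows in suspension and depends on granulocyte-macrophage colony-stimulating factor (GM-CSF), and both carry the BCR-ABL oncogene introduced with a retrovirus. The resistant cells were obtained from the sensitive ones by months of culture with imatinib, an inhibitor of the BCR-ABL kinase, so each group is a single cultured population. Per the labels both were grown in RPMI-1640 with 10% serum and 2 ng/mL GM-CSF, and the resistant cells also with 2 µM imatinib. The study's methods give another GM-CSF concentration. Each line gave 2 libraries, replicate 1 and replicate 2, from 10000000 cells each. The titles of the resistant libraries say vector although their labels name TF1-BAR cells, and an effect of a vector, of drug present at harvest and of resistance cannot be told apart. Nothing in the labels says that the replicates were separate cultures, so the tests measure the spread between libraries, which may be technical.

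Wnt ligands are lipid-modified proteins that bind a frizzled receptor together with the co-receptor LRP5 or LRP6 on the cell surface. Without ligand, a destruction complex built on AXIN1 and APC marks beta-catenin (CTNNB1) for degradation. With ligand, Dishevelled proteins interrupt that complex, beta-catenin enters the nucleus, displaces the Groucho/TLE corepressors from the TCF/LEF factors and turns on target genes, among them feedback inhibitors such as AXIN2. In chronic myeloid leukaemia the pathway is known for its part in the self-renewal of leukaemic stem cells.

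Depth was 18042299 and 15465497 fragments for TF1-BA and 15761642 and 16074303 for TF1-BAR, numbers recovered from the steps between the deposited values. Levels are given as FPKM, fragments scaled to transcript length and library size, and can therefore be compared between genes of different length. Differences were tested with limma on log2(FPKM + 0.5) for 15519 genes whose mean reached 0.5 FPKM, and an adjusted p is adjusted by the Benjamini-Hochberg method over all of these. The median log2 fold change of all genes tested was 0.066, and fold changes on this scale understate the change of low genes. The 10 markers of the TF1 line were all tested, with summed levels of 306 to 314 FPKM in the TF1-BA and 402 to 424 FPKM in the TF1-BAR libraries. The 5 lymphoid markers in the table summed to 22.3 to 24.2 FPKM in TF1-BA and 10.2 to 10.5 FPKM in TF1-BAR, most of it CD3D, while CD3E and NCAM1 had at most 3 fragments in every library. The 7 markers of stroma, endothelium and epithelium summed to 24.6 FPKM in both TF1-BA libraries and to 26.9 to 29.5 FPKM in TF1-BAR, most of it PECAM1 (log2 fold change 0.06, adjusted p = 0.593). In the same list the endothelial marker CDH5 rose from 0.733 and 0.628 to 3.28 and 3.40 FPKM (log2 fold change 1.70, adjusted p = 0.00409), and KRT19 and COL1A2 had 3 fragments or fewer. The part of these markers in the results was not tested.

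Of the 42 Wnt pathway genes, 34 passed the filter on low values, with 26 to 4012 fragments per library. Among these 34, 7 were higher in TF1-BAR cells at an adjusted p under 0.05 (BTRC, WLS, TLE3, FZD7, PYGO2, LEF1 and DVL2) and 3 were lower (TLE4, FZD8 and FZD4). Over all genes tested, 16.3% were higher and 10.5% lower by the same rule. The other 24 did not pass. When the log2 fold change also had to reach 1 in size, 2 members remained on the lower side, TLE4 and FZD8, and 0 on the higher side, against 1.69% and 3.05% of all genes. 0 were also found higher at that fold with an unadjusted p under 0.05 and by limma voom on recovered fragments. With a pseudocount of 1 FPKM 0 members passed both thresholds in either direction (TLE4 at -0.98, FZD8 at -0.88). With each chromosome's median subtracted, TLE4 passed on the lower and BTRC on the higher side. The median log2 fold change of the 34 was 0.15, with 21 positive and 13 negative. In 24 of the 34, or 70.6%, the libraries of the lines did not overlap, 18 of them higher in TF1-BAR, beside 69.3% of all genes tested. With upper-quartile scaling or quantile normalization, 4 members were higher and 3 lower, since DVL2, FZD7 and LEF1 no longer passed. Of all 15519 genes, 4115 and 3980 were then called in either direction. Leaving out TF1-BA replicate 1 or TF1-BA replicate 2 leaves that line 1 library. The log2 fold change was then -1.18 or -1.17 for TLE4 and -1.04 or -1.16 for FZD8, and no member kept its call. Without TF1-BAR replicate 1, 4 were higher and 2 lower, beside 3176 of all 15519 genes called in either direction, and without TF1-BAR replicate 2, 0 were higher and 2 lower, beside 1028.

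**Figure D1:**
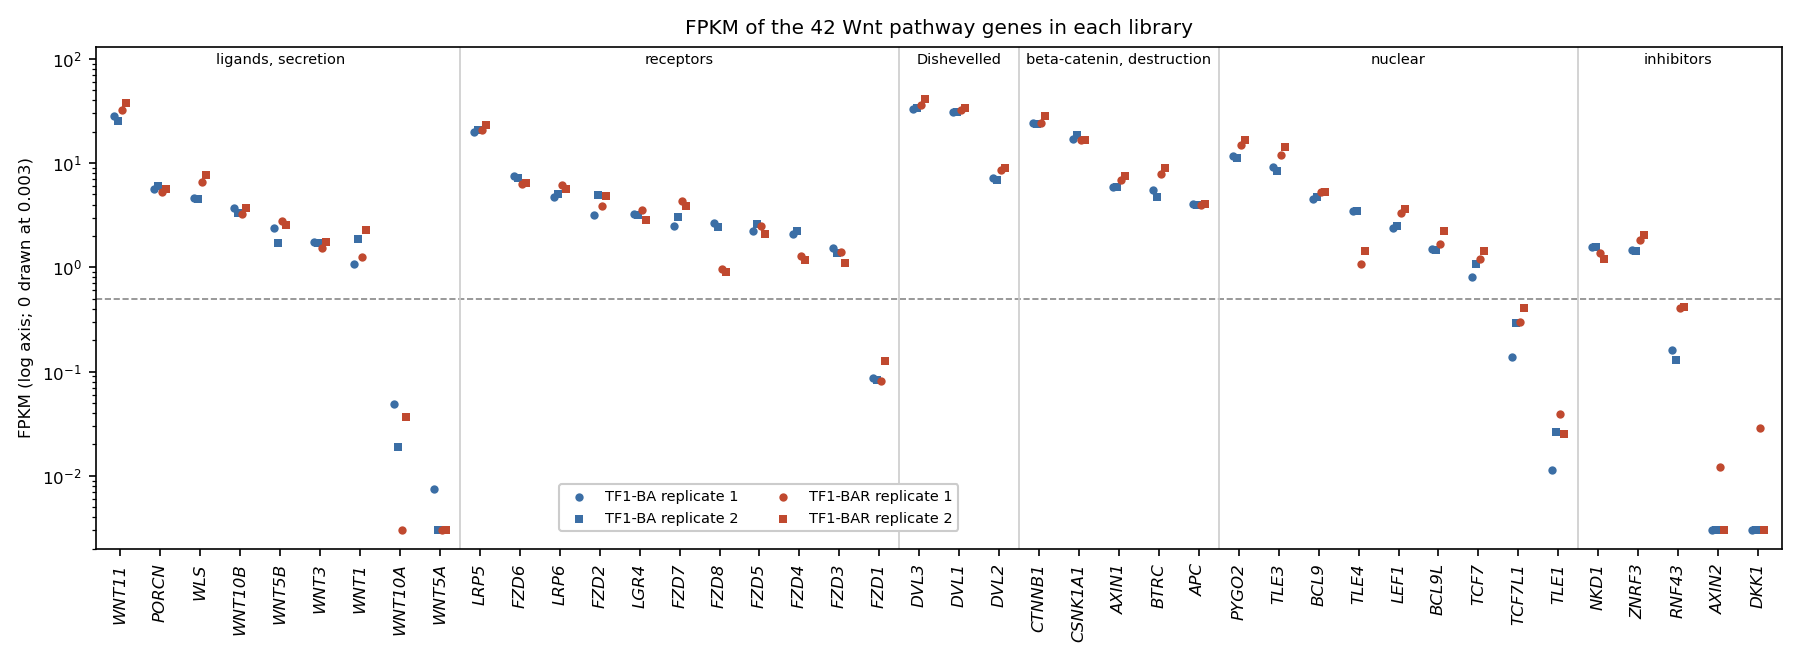
The vertical axis gives FPKM on a log scale for each of the 42 Wnt pathway genes, grouped by role. Circles are replicate 1 and squares replicate 2 of the TF1-BA (blue) and TF1-BAR (red) cells, values of 0 are drawn at 0.003, and the dashed line marks 0.5 FPKM. WNT11, LRP5, CTNNB1 and the Dishevelled genes DVL1 and DVL3 lie near the top of their groups, while AXIN2, DKK1, WNT5A, WNT10A and TLE1 lie at the bottom.

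TLE4 and FZD8 had the largest falls among the 34 genes, in an order that depends on the scale. TLE4 encodes a Groucho/TLE corepressor, which TCF/LEF factors recruit in the absence of beta-catenin, and lies on the plus strand of chromosome 9 (GRCh38, 79571773 to 79726882). Its level was 3.45 and 3.48 FPKM in the TF1-BA libraries and 1.08 and 1.45 FPKM in the TF1-BAR libraries. Both resistant libraries were thus below both sensitive ones, by 2.73 times in the mean. The log2 fold change was -1.17 (SE 0.139, adjusted p = 0.00887), from 509 and 441 fragments in TF1-BA and 140 and 191 in TF1-BAR. In bulk RNA, fewer cells expressing a gene and less RNA per cell cannot be told apart. Of the 22 other genes tested within 5 Mb of TLE4, a window chosen after the values were seen, the median was 0.029 and 1 was lower than TLE4.

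The related TLE3 rose. Its levels were 9.19 and 8.44 FPKM in TF1-BA and 11.9 and 14.4 FPKM in TF1-BAR, without overlap, and the log2 fold change was 0.55 (SE 0.113, adjusted p = 0.0277). TLE1, the third corepressor among the members, had 1 to 3 fragments per library and was not tested. Summed over the members of this family, the level was 12.6 and 11.9 FPKM in TF1-BA and 13.1 and 15.9 FPKM in TF1-BAR. TLE4 made up 27.2% and 29.1% of that sum in the sensitive cells and 8.31% and 9.14% in the resistant cells, and TLE3 went from 72.7% and 70.6% to 91.4% and 90.7%. TLE2, which is counted among the other pathway genes below, fell from 1.81 and 1.95 FPKM to 1.13 and 1.08 FPKM (log2 fold change -0.57, SE 0.123, adjusted p = 0.0307).

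The rest of the nuclear members were LEF1, TCF7, TCF7L1, BCL9, BCL9L and PYGO2. LEF1, a DNA-binding partner of beta-catenin, was at 2.37 and 2.52 FPKM in TF1-BA and at 3.35 and 3.62 FPKM in TF1-BAR. The resistant libraries were both higher, with a log2 fold change of 0.44 (SE 0.0980, adjusted p = 0.0334). LEF1 is also a gene of lymphoid precursors. Among the lymphoid markers, CD3D fell from 19.2 and 20.7 to 5.74 and 6.36 FPKM and CD79A rose from 1.84 and 2.19 to 3.55 and 3.15 FPKM. PYGO2, which reads methylated histone H3 and joins beta-catenin through BCL9, had 11.7 and 11.2 FPKM in TF1-BA and 15.0 and 16.8 FPKM in TF1-BAR (log2 fold change 0.46, SE 0.0847, adjusted p = 0.0219). In the GENCODE 44 annotation, 9.14% of the exon bases of PYGO2 are shared with SHC1, whose level was 29.1 to 35.3 FPKM, and 5.2% of those of LEF1 are shared with LEF1-AS1, whose level was 0.0808 to 0.238 FPKM. How fragments in shared exons were assigned is not given in the sources used here. BCL9, BCL9L and TCF7 did not pass, with log2 fold changes of 0.17, 0.31 and 0.34, although the resistant libraries of each were above the sensitive ones. TCF7 was at 0.810 and 1.07 FPKM in TF1-BA and 1.19 and 1.45 FPKM in TF1-BAR, and its 95% confidence interval ran from -0.10 to 0.78. TCF7L1 had 11 and 20 fragments in TF1-BA and 21 and 29 in TF1-BAR and was under the filter. In all, 7 of the 9 nuclear members were tested, and 3 were higher and 1 was lower (57.1% together), beside 26.9% of all genes in either direction. Earlier results of these data were known when the members were chosen, so this share is a description and not a test.

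**Figure D2:**
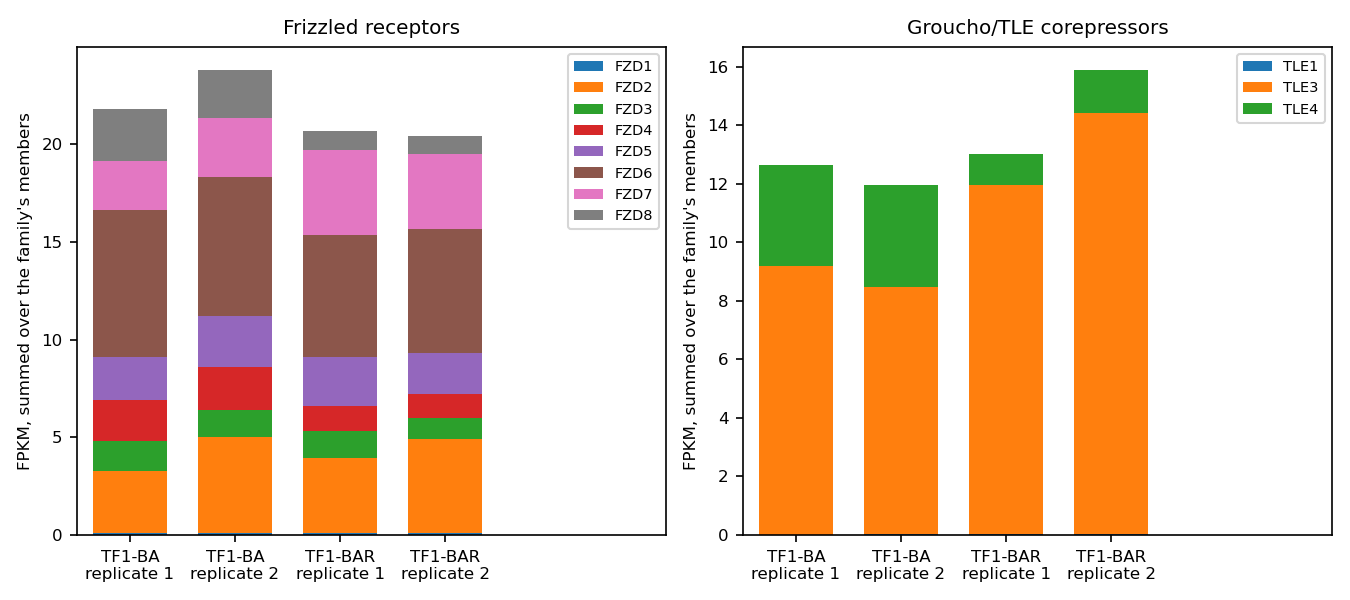
Stacked bars give the FPKM of the frizzled receptors (left) and of the Groucho/TLE corepressors (right) among the members, 1 bar per library. FZD8 and TLE4 take smaller segments in both TF1-BAR libraries, and FZD7 and TLE3 larger ones, while the frizzled sum lies between 20.4 and 23.8 FPKM in all 4.

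Frizzled receptors are the seven-pass membrane proteins that bind Wnt ligands. Of the 8 among the members, 7 were tested, FZD8 and FZD4 fell, FZD7 rose and the other 4 did not pass. FZD8 (minus strand of chromosome 10, 35638249 to 35642278) was at 2.68 and 2.44 FPKM in TF1-BA and at 0.960 and 0.895 FPKM in TF1-BAR. The sensitive libraries were 2.76 times higher in the mean, with a log2 fold change of -1.10 (SE 0.122, adjusted p = 0.00783) from 58 to 195 fragments per library. FZD4 was at 2.10 and 2.22 FPKM in TF1-BA and at 1.28 and 1.18 FPKM in TF1-BAR (log2 fold change -0.62, SE 0.117, adjusted p = 0.0230). Both resistant libraries were again below both sensitive ones. On the opposite strand FZD4 overlaps PRSS23, which shares 18.9% of the exon bases of FZD4 and also fell (log2 fold change -0.83, adjusted p = 0.0111, levels 2.72 to 5.93 FPKM). The library kit is named without a strand protocol, so that fragments of the shared exons cannot be told apart. FZD7 rose from 2.47 and 3.02 FPKM in TF1-BA to 4.34 and 3.85 FPKM in TF1-BAR (log2 fold change 0.51, SE 0.125, adjusted p = 0.0421). This call was kept in 7 of 17 alternatives, and less its chromosome's median the change of FZD7 was 0.46 (adjusted p = 0.0588).

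FZD6 had the highest level of the frizzled genes in every library, 7.53 and 7.13 FPKM in TF1-BA and 6.24 and 6.38 FPKM in TF1-BAR, and did not pass (log2 fold change -0.20, adjusted p = 0.118). FZD2, FZD3 and FZD5 overlapped between the lines, with log2 fold changes of 0.10, -0.16 and -0.06. FZD2 differed between replicates as much as between lines, at 3.18 and 4.93 FPKM in TF1-BA and 3.85 and 4.80 FPKM in TF1-BAR. FZD1 had 9 to 14 fragments in each library and was under the filter. The sum over the frizzled genes among the members was 21.8 and 23.8 FPKM in TF1-BA and 20.7 and 20.4 FPKM in TF1-BAR. FZD8 took 12.3% and 10.3% of it in the sensitive and 4.65% and 4.38% in the resistant cells, while FZD7 took 11.3% and 12.7% and then 21.0% and 18.9%.

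Among the co-receptors, LRP5 was at 20.0 and 20.7 FPKM in TF1-BA and at 20.6 and 23.2 FPKM in TF1-BAR, and the groups overlapped (log2 fold change 0.10, adjusted p = 0.391). LRP6 was lower than LRP5 in every library, at 4.72 and 5.04 FPKM in TF1-BA and 6.19 and 5.66 FPKM in TF1-BAR, and did not pass (0.26, adjusted p = 0.0952). LGR4, a receptor for R-spondins, was at 2.83 to 3.58 FPKM with overlapping groups. Of the 11 receptor genes, 10 were tested, 1 was higher and 2 were lower, beside 26.9% of all genes in either direction.

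Ligands were represented mainly by WNT11, a ligand known for signalling that does not need beta-catenin. Its level was 28.3 and 25.1 FPKM in TF1-BA and 32.1 and 37.4 FPKM in TF1-BAR, and it made up 74.4% to 78.4% of the summed level of the Wnt genes among the members in every library. The resistant libraries were higher, but the difference did not pass (log2 fold change 0.37, SE 0.105, adjusted p = 0.0587). WNT11 was called higher in 4 alternatives, those with a mean of 1 FPKM or more, TPM, limma voom and a mean of 10 or more fragments. WNT11 is named, as are RNF43 and the neighbouring genes, after its values were seen. WNT1, WNT3, WNT5B and WNT10B were detected at 1.07 to 3.74 FPKM and none of these 4 passed, at adjusted p from 0.191 to 0.969. WNT1 rested on 26 to 49 fragments per library, and its interval, from -0.58 to 0.97, was the widest of the tested members. WNT5A and WNT10A had at most 3 fragments in any library.

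Secretion of Wnt ligands needs PORCN, which attaches the lipid, and WLS, which carries the ligand to the surface. WLS rose from 4.60 and 4.51 FPKM in TF1-BA to 6.59 and 7.71 FPKM in TF1-BAR, a ratio of 1.57 (log2 fold change 0.59, SE 0.102, adjusted p = 0.0185). PORCN was at 5.63 and 6.03 FPKM in TF1-BA and at 5.25 and 5.64 FPKM in TF1-BAR, with overlapping groups (log2 fold change -0.09, 95% confidence interval -0.32 to 0.13). Antisense to WLS, GNG12-AS1 was at 0.224 to 0.539 FPKM and shares 2.49% of the exon bases of WLS.

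The 3 Dishevelled genes, which relay the signal from frizzled receptors to the destruction complex, were all higher in both resistant libraries than in both sensitive ones, as groups did not overlap for 69.3% of all genes. DVL2 rose from 7.17 and 6.89 to 8.54 and 8.94 FPKM (log2 fold change 0.30, SE 0.0760, adjusted p = 0.0462). DVL2 kept this call in 7 of 17 alternatives, and less its chromosome's median the change was 0.18 (adjusted p = 0.146). DVL1 and DVL3 were at several times its level and did not pass. DVL1 was at 30.7 and 31.0 FPKM in TF1-BA and 32.2 and 33.8 FPKM in TF1-BAR (log2 fold change 0.10, adjusted p = 0.298), and DVL3 was at 33.0 and 33.9 FPKM and at 36.0 and 41.0 FPKM (0.20, adjusted p = 0.141).

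CTNNB1, the gene of beta-catenin itself, was at 24.3 and 23.7 FPKM in TF1-BA and at 24.5 and 28.4 FPKM in TF1-BAR. TF1-BAR replicate 1 was within 1 FPKM of both sensitive libraries. The log2 fold change was 0.13 (SE 0.0905, adjusted p = 0.321), with a 95% confidence interval of -0.10 to 0.37, so that a change of the size seen for TLE4 or WLS lies outside the interval. Without TF1-BAR replicate 1 the value was 0.24 (adjusted p = 0.0722) and without TF1-BAR replicate 2 it was 0.03 (adjusted p = 0.767). Protein level and phosphorylation, through which beta-catenin is mainly controlled, were not measured in these files.

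In the destruction complex, BTRC was the member that rose. It encodes the F-box protein that recognises phosphorylated beta-catenin and hands it to a ubiquitin ligase, and lies on the plus strand of chromosome 10 (101354033 to 101557321). BTRC was at 5.50 and 4.69 FPKM in TF1-BA and at 7.78 and 8.89 FPKM in TF1-BAR, a ratio of 1.64 (log2 fold change 0.66, SE 0.114, adjusted p = 0.0191). The same F-box protein also recognises substrates outside this pathway. The scaffold AXIN1 was at 5.89 and 5.95 FPKM in TF1-BA and at 6.96 and 7.51 FPKM in TF1-BAR without overlap, and did not pass (log2 fold change 0.27, adjusted p = 0.0671). APC, the other scaffold, was at 3.95 to 4.06 FPKM in all 4 libraries (log2 fold change -0.01, 95% confidence interval -0.22 to 0.20). CSNK1A1, the kinase that primes beta-catenin, was at 17.1 and 18.5 FPKM in TF1-BA and at 16.6 and 16.7 FPKM in TF1-BAR (log2 fold change -0.10, adjusted p = 0.374).

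**Figure D3:**
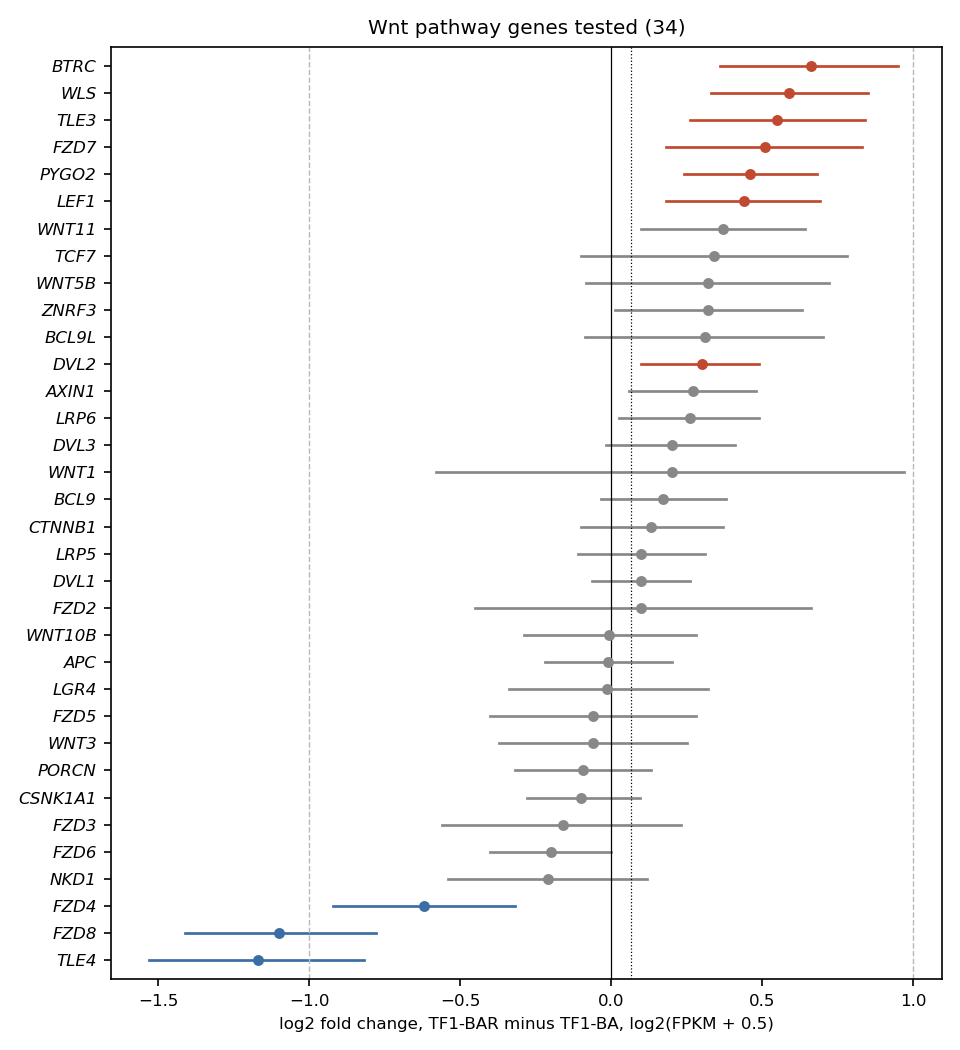
Points are log2 fold changes of TF1-BAR over TF1-BA cells on log2(FPKM + 0.5) for the 34 members tested, and lines are 95% confidence intervals. Red and blue mark an adjusted p under 0.05, the dotted line the median of all genes (0.066) and dashed lines a log2 fold change of 1 in size. TLE4 and FZD8 lie beyond the left dashed line, and CTNNB1 and APC have intervals that cover 0.

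The 5 feedback inhibitors among the members were at 2.06 FPKM or less. AXIN2, the inhibitor most widely used as a readout of beta-catenin activity, had 0 and 0 fragments in TF1-BA and 1 and 0 in TF1-BAR, which is below the floor of 3 fragments, at or under which a gene is not taken as detected here. DKK1, a secreted inhibitor of LRP5 and LRP6, had 1 fragment in 1 library. ZNRF3, a membrane ubiquitin ligase that removes frizzled receptors, was at 1.48 and 1.44 FPKM in TF1-BA and at 1.84 and 2.06 FPKM in TF1-BAR (log2 fold change 0.32, adjusted p = 0.107). NKD1, which binds Dishevelled, was at 1.57 in both TF1-BA libraries and at 1.37 and 1.21 FPKM in TF1-BAR (log2 fold change -0.21, adjusted p = 0.272). Of these 2 tested inhibitors, 0 passed by limma on FPKM, where ZNRF3 had an unadjusted p of 0.0433, while limma voom on recovered fragments called ZNRF3 higher (adjusted p = 0.0307). Of the other members that did not pass, voom also called WNT11, AXIN1, LRP6, TCF7 and BCL9L higher, at adjusted p from 0.00983 to 0.0450. Of all 15519 genes, voom called 5859 in either direction, beside 4167 by limma on FPKM.

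RNF43, the relative of ZNRF3, was under the filter with 22 and 15 fragments in TF1-BA and 48 and 50 in TF1-BAR. Both resistant libraries were above both sensitive ones, and the mean FPKM was 2.81 times as high. Where every gene was tested, its log2 fold change was 0.50 with an adjusted p of 0.0914. In a filter chosen after seeing the data, which keeps genes averaging 10 or more recovered fragments, the same fold change had an adjusted p of 0.0128. The span of RNF43 overlaps SUPT4H1, which was at 6.61 to 12.1 FPKM over the libraries and rose (log2 fold change 0.64, adjusted p = 0.0226). The exons of these genes share 0 bases in GENCODE 44.

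Chromosome 10 carries FZD8, BTRC and DKK1, and its genes were lower as a whole. The median log2 fold change of its 593 tested genes was -0.35. Beyond that median FZD8 was lower by a log2 fold change of -0.75 (adjusted p = 0.0162 with the values shifted by each chromosome's median, against 4.44e-05 to 0.0735 over all settings tried), and BTRC was higher by 1.01 (adjusted p = 0.00883, range 0.000242 to 0.119). Both thus kept their direction, BTRC passed both thresholds and FZD8 no longer did. Among 23 other genes tested within 5 Mb of FZD8 the median was -0.30 and 0 were lower than FZD8. Among 96 within 5 Mb of BTRC the median was -0.27 and 5 were higher than BTRC. Adding the pathway and target genes listed below, 9 genes tested lie on chromosome 10, of which 6 were negative, 5 of them at an adjusted p under 0.05, and 3 positive, all 3 passing. Of all genes tested on the chromosome, 4.38% were higher and 44.5% lower by that rule. With the shift, CTBP2, TNKS2 and FRAT1 lost their call, and FZD8, TCF7L2, BTRC, SFRP5 and BAMBI kept theirs. These genes were picked out after their values were seen. The copy number of the chromosome was not measured in these files.

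**Figure D4:**
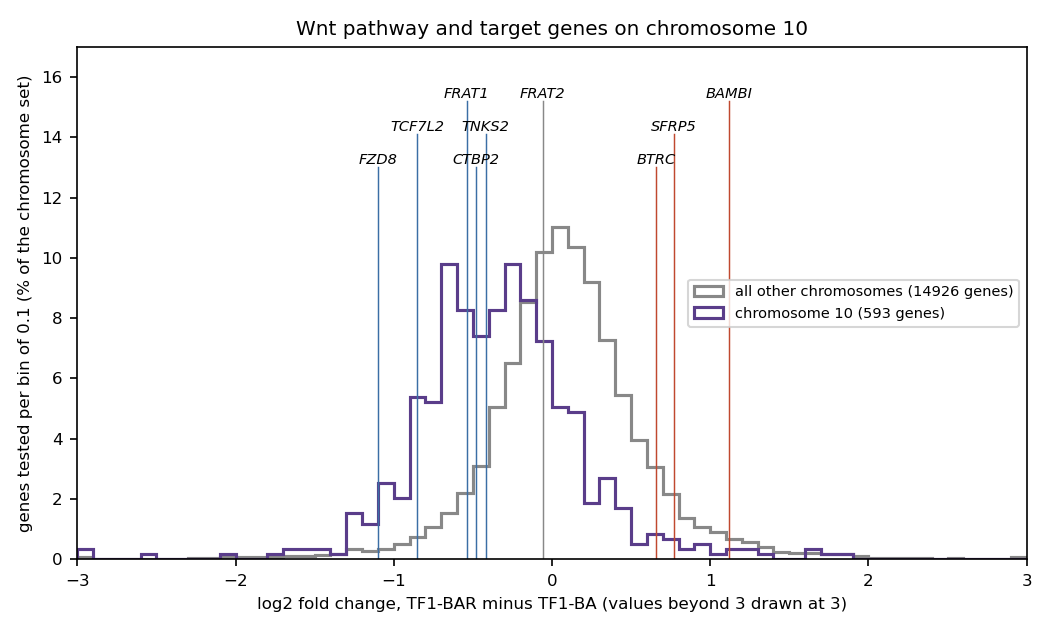
Outlined histograms give the log2 fold changes of the genes tested on chromosome 10 (593 genes, purple) and elsewhere (14926 genes, grey), in bins of 0.1 as a percentage of each set. Vertical lines mark the pathway and target genes on chromosome 10. The purple outline lies to the left of the grey one, and BTRC, SFRP5 and BAMBI lie to the right of both peaks.

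Promoter sequences are shown for TLE4 and FZD8, the 2 members that passed both thresholds. They come from RefSeq promoter windows (GRCh38.p14) of 250 bases before to 50 bases after a transcription start, and the bases printed are those before the start that lie outside annotated exons. TLE4 has 2 windows. The one shown begins inside the gene's span as the files give it, and the other, chr9:79571715-79572014 at the start of that span, holds none of the motifs searched. Capitals mark CTTTGAA, a form of the TCF/LEF site, in the TLE4 window and TATAAA, the core of a TATA box, in the FZD8 window.
TLE4, chr9:79572927-79573172, plus strand: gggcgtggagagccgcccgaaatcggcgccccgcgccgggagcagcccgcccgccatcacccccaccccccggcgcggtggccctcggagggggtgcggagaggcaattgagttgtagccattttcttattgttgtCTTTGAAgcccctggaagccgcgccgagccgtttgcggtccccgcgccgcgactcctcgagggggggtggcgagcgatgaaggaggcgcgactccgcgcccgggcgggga
FZD8, chr10:35642297-35642546, minus strand: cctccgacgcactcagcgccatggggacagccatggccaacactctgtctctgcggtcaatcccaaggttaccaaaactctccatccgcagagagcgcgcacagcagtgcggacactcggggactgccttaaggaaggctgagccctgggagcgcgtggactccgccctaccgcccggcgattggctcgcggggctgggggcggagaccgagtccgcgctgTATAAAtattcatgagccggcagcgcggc

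For 30 of the 42 members the RefSeq table held 41 windows. On either strand, CTTTGAA was found in 2 of them, those of TLE4 and DKK1, and in 4.43% of all 35116 windows. CTTTGAT, the other form searched, which differs in its last letter, was in 0 of the 41 and in 2.62% of all. TATAAA was in the windows of 6 members, CSNK1A1, DKK1, FZD8, TCF7, TLE3 and WNT5B, and in 11.5% of all windows. The member windows held a median of 25 CpG dinucleotides and 65.7% GC, against 14 and 58.7% over all windows. A match of letters is a description and not a bound site.

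The other genes of the pathway were taken from lists of ligands, receptors, inhibitors, cytoplasmic and nuclear components, of which 73 are in the table and 46 were tested. Earlier results of these data were known when the lists were chosen, so the shares of these genes are a description and not a test. At an adjusted p under 0.05, 12 were higher and 6 lower (39.1% together), beside 16.3% higher and 10.5% lower of all genes. By limma on FPKM as deposited 0 passed both thresholds, also at an unadjusted p under 0.05, while limma voom gave 1 on the lower side and the shift by chromosome medians 1 on the higher side, SFRP5. Their median was 0.036. With upper-quartile scaling 5 were higher and 9 lower, with quantile normalization 6 and 7, and with the replicate number as a block 7 and 6. Of all 15519 genes, 4115, 3980 and 3969 were then called in either direction. Without TF1-BA replicate 1 or TF1-BA replicate 2, none of these pathway genes kept its call. Without TF1-BAR replicate 1, 9 were higher and 3 lower, and without TF1-BAR replicate 2, 1 was higher and 0 were lower, beside the 3176 and 1028 of all genes given above. None of the 13 further ligands, Wnt genes and R-spondins, reached the filter. WNT2B had 40 to 65 fragments per library and the other 12 had at most 12.

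Among further receptors, PTK7, a co-receptor without kinase activity, rose from 6.23 and 6.48 to 7.98 and 7.89 FPKM (log2 fold change 0.30, adjusted p = 0.0423). SFRP5, a secreted decoy that binds Wnt ligands, was at 6.37 and 5.46 FPKM in TF1-BA and at 9.74 and 11.0 FPKM in TF1-BAR (log2 fold change 0.77, SE 0.111, adjusted p = 0.0124). SFRP5 lies on chromosome 10, and less that chromosome's median its change was 1.11 (adjusted p = 0.00734), which passes both thresholds. TPBG, a membrane inhibitor of LRP6, rose from 7.06 and 6.78 to 10.5 and 11.2 FPKM (0.61, SE 0.0769, adjusted p = 0.00980). These 2 of 6 inhibitors tested passed (33.3%, beside 26.9% of all genes in either direction), and the other 4 did not.

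Of 24 cytoplasmic genes tested, 5 were higher and 3 lower, or 33.3% beside 26.9% of all genes. CSNK1D, a kinase that phosphorylates Dishevelled, rose from 5.76 and 6.19 to 8.44 and 9.67 FPKM (log2 fold change 0.56, SE 0.0983, adjusted p = 0.0195). SKP1, the adaptor that joins BTRC to its ubiquitin ligase, fell from 6.44 and 5.91 to 4.53 and 3.64 FPKM (-0.55, SE 0.124, adjusted p = 0.0340), opposite to BTRC. FRAT1, which keeps the kinase of the destruction complex away from AXIN1, fell from 3.28 and 2.90 to 1.92 and 2.02 FPKM (-0.54, SE 0.109, adjusted p = 0.0260), and less the median of chromosome 10 its change was -0.19 (adjusted p = 0.226). TNKS2, the other lower gene, was at -0.42 and lost its call in the same way (-0.08, adjusted p = 0.395).

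Of 13 other nuclear genes tested, 4 were higher and 3 lower, or 53.8% beside 26.9% of all genes. TCF7L2, a TCF factor beside LEF1 and TCF7, fell from 3.91 and 3.57 FPKM in TF1-BA to 2.03 and 1.68 FPKM in TF1-BAR (log2 fold change -0.85, SE 0.121, adjusted p = 0.0122). LEF1 was thus below TCF7L2 in both sensitive libraries and above it in both resistant ones. TCF7L2 also lies on chromosome 10, and less that chromosome's median its change was -0.50 (adjusted p = 0.0406), while CTBP2, a corepressor on the same chromosome, went from -0.48 to -0.14 and was no longer called (adjusted p = 0.341). JUP, the relative of beta-catenin named plakoglobin, rose from 23.6 and 24.2 to 35.9 and 35.7 FPKM (0.57, SE 0.0603, adjusted p = 0.00715). Its level equalled that of CTNNB1 in the sensitive cells within 1 FPKM and was above it in both resistant libraries.

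Known target genes of beta-catenin were examined as a list of 25 genes in the table, of which 7 are members. The study had already reported CD44, 1 of these genes, as higher in TF1-BAR cells. The list was chosen with earlier results of these data known, so its shares are a description and not a test. Of the 18 tested, 7 were higher and 4 lower at an adjusted p under 0.05 (61.1% together), beside 16.3% and 10.5% of all genes, and 2 were higher by both thresholds, beside 3.05% of all genes. These 2, TNFRSF19 and BAMBI, became 0 with a pseudocount of 1 FPKM, with quantile normalization, without TF1-BAR replicate 2 and without either TF1-BA replicate, and 1 without a filter. TNFRSF19, a receptor of the tumour necrosis factor family, rose from 1.04 and 0.822 FPKM in TF1-BA to 2.49 and 2.70 FPKM in TF1-BAR (log2 fold change 1.12, SE 0.137, adjusted p = 0.00943). BAMBI, a decoy receptor for transforming growth factor beta, rose from 0.766 and 0.531 to 1.78 and 2.2 FPKM (1.12, SE 0.179, adjusted p = 0.0157) on 19 to 82 fragments per library. ID2, an inhibitor of DNA-binding factors, fell from 29.1 and 26.1 to 15.2 and 14.3 FPKM (-0.88, SE 0.0842, adjusted p = 0.00624). Named after their values were seen, the other called targets were CD44, CCND1, MYC, LEF1 and SOX4 on the higher side, with log2 fold changes of 0.36 to 0.86, and FOSL1, JUN and VEGFA on the lower side, at -0.85, -0.86 and -0.46. These genes have other regulators besides beta-catenin. With upper-quartile scaling 4 targets were higher and 4 lower, beside 4115 of all 15519 genes called in either direction. Without either TF1-BA library no target kept its call. Without TF1-BAR replicate 1, 3 were higher and 4 lower, beside 3176 of all 15519 genes, and without TF1-BAR replicate 2, 1 was higher and 4 were lower, beside 1028.

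**Figure D5:**
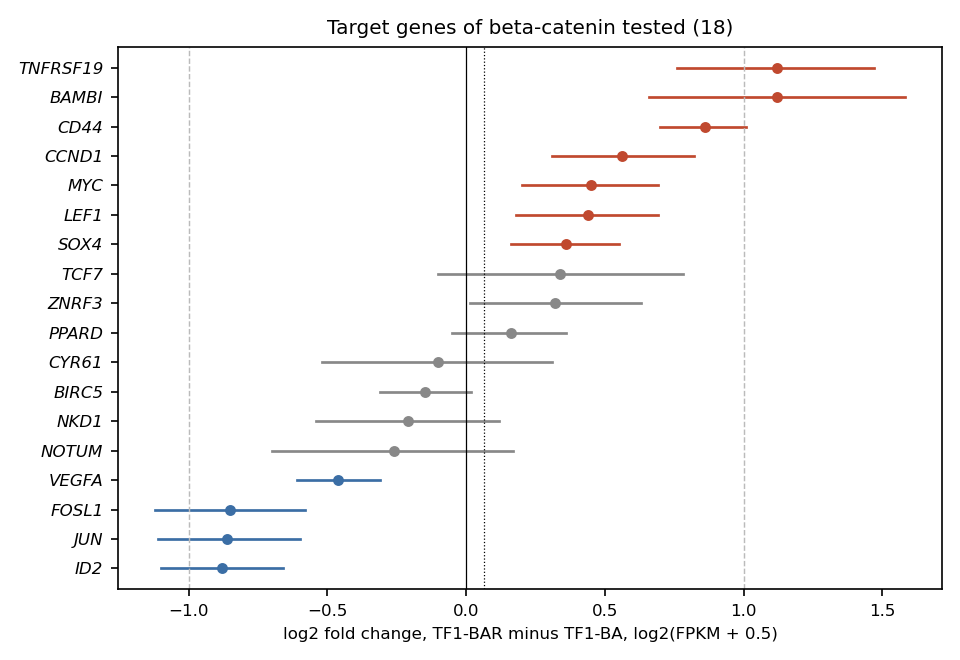
Points are log2 fold changes of TF1-BAR over TF1-BA cells on log2(FPKM + 0.5) for the 18 target genes tested, and lines are 95% confidence intervals. Red and blue mark an adjusted p under 0.05, the dotted line the median of all genes (0.066) and dashed lines a log2 fold change of 1 in size. TNFRSF19 and BAMBI lie beyond the right dashed line, and ID2, JUN and FOSL1 lie furthest to the left.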

How the data were processed

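The study's methods describe alignment of paired-end reads with TopHat to GRCh38 and a pipeline with Cufflinks and Cuffdiff. The submitters' processing notes name TopHat2 2.0.13, Cufflinks 2.2.0 and Cuffdiff 2.2.0. Which program gave the deposited values was not tested. The values deposited are FPKM per gene and library, without logarithm. The annotation release is not given in the sources used here. The authors tested with DESeq2, which needs counts, so limma 3.58.1 (R 4.3.3) was used on log2(FPKM + 0.5), with eBayes and its trend, for genes averaging 0.5 FPKM or more. limma voom on recovered fragments was an alternative. Fragments were recovered by searching for library sizes and gene lengths that turn a gene's FPKM into whole numbers (tolerance 0.001), which 14220 genes did at their annotated and 16632 at a fitted length out of 30853 above 0, and serve as depth. 26 symbols turned into dates were restored from their identifiers. The script was tested on simulated data. The members and gene lists were chosen with earlier results of these data known. Named with their values were members with an adjusted p under 0.05, CTNNB1, AXIN2 and LEF1, and in each other list the genes passing both thresholds and the 3 with the largest change among those with an adjusted p under 0.05. The remaining members were accounted for by role, and values printed for them, as for neighbouring, overlapping and marker genes, were chosen after they were seen. With 2 libraries per line, an exact permutation test cannot give a p under 0.333.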

Additional observations from a re-analysis of the deposited data

How the results depend on the processing

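The 10 called members kept their direction in all 17 alternatives, 1 of which (a mean of at least 10 recovered fragments) was chosen after seeing the data. TLE4 and FZD8 kept their call in 15 of the 17, losing it without either TF1-BA replicate, with log2 fold changes of -1.46 to -0.98 and -1.46 to -0.75. DVL2 and FZD7 kept it in 7 each. Leaving out 1 library assumes that the lone library of a line varies like the other line. Over these 4 fits the members passing both thresholds on the lower side ranged from 0 to 2, the members higher at an adjusted p under 0.05 from 0 to 4 and lower from 0 to 2, the other pathway genes from 0 to 9 higher and from 0 to 3 lower, and the targets from 0 to 3 higher and from 0 to 4 lower. A pseudocount of 1 FPKM left 0 members under both thresholds, since it shrinks the change of low genes. Shifting by the chromosome median left 1 lower (TLE4) and 1 higher (BTRC), with 5 other pathway genes higher. Without a filter on low values 30853 genes were tested and 1446 called in either direction. In that setting 0 members, 2 other pathway genes and 2 targets were higher and 1 other pathway gene was lower. Higher members numbered 4 with upper-quartile scaling, 4 with quantile normalization, 4 without the eBayes trend and 13 with voom. Of all 15519 genes, these settings called 4115, 3980, 3088 and 5859 in either direction, beside 4167 in the main fit. Higher other pathway genes numbered 5, 6 and 4 with upper-quartile scaling, quantile normalization and no trend, voom gave 10 lower, and upper-quartile scaling gave 4 higher targets. For these counts the cause was not tested. The median of all genes was 0.14 after rescaling to TPM, -0.013 after upper-quartile scaling and 0.066 as deposited.

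With the replicate number as a block, 5 members were higher and 3 lower, and DVL2 (adjusted p = 0.0648, 0.0189 to 0.254 over all settings) and FZD7 (0.0637, 0.00608 to 0.214) no longer passed, while 7 other pathway genes were higher. Of all 15519 genes, 3969 were called with the block. The labels do not say whether same-numbered libraries were prepared together. The correlation of their deviations from the line means was 0.0646, which rests on 1 difference per line and cannot decide this. Fragments per library limit the least abundant members, and 5 of the 42 had at most 3 in each.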
